A study of Homo sapiens with 6 samples.

Results

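The proteins of the cytosolic ribosome were examined as 190 of the 49372 probe sets on the array, which report on 74 of the 18132 genes with a probe set of their own. A probe set is a group of short DNA probes read as 1 value. A probe set was a member where the platform annotation gave it 1 gene symbol, and that symbol began with RPL or RPS and a digit or was RPLP0, RPLP1, RPLP2 or RPSA. RPS6K kinases, RPS27L, pseudogenes and antisense or divergent transcripts were left out. The members were 41 genes of the large subunit, 23 of the small subunit, 9 paralogs and RPS19BP1. RPS19BP1 meets the rule by its letters, but it encodes a nucleolar binding partner and no ribosomal protein. Of the 74 genes 53 had more than 1 probe set, up to 9 for RPL28.

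The study compared 3 arrays from ARPE-19 cells given a GFP-satellite alpha plasmid (SATalpha) with 3 arrays from cells given a GFP plasmid (GFP), both at 2.5 µg per well of a 6-well plate. ARPE-19 is a line of human cells from the retinal pigment epithelium, and satellite alpha is the repeat DNA of human centromeres. All wells were therefore transfected with a plasmid that carries GFP, and no untransfected cells were among the groups. The labels call the wells triplicates and name no separate cultures, so every p-value here rests on well-to-well spread, which may be technical.

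The ribosome of the cytosol joins a large subunit, which forms peptide bonds, to a small subunit, which reads the mRNA. Its proteins are made in nearly equal amounts, and their mRNAs are among the most abundant in growing cells. Most of these mRNAs begin with a C and a run of pyrimidines, the 5′ TOP (terminal oligopyrimidine) element, through which mTOR and LARP1 control their translation. Unassembled RPL5 and RPL11, which bind 5S rRNA, can bind MDM2 and restrain it, which links ribosome assembly to p53.

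The TOP element is visible at the annotated starts of members in RefSeq's GRCh38.p14 promoter table. It held 61 of the 74 genes. The search was for a C at the first transcribed base followed on the same strand by 4 or more bases that are each C or T. Of 54 matched subunit genes 38 had such a start (70.4%), against 4.04% of 27305 promoters in the table and 4 of 67 matched genes for mitochondrial ribosomal proteins. Of 7 matched paralogs 2 had it. The windows shown run from 10 bases before the start to 20 bases from it, and capitals mark the first transcribed base and the unbroken C or T run that begins there. RPL28, RPLP1, RPS27 and RPL36 are shown as genes with the element, and the next 4 are paralogs. Of these RPL22L1 has the element by this search, and RPL36AL, RPL7L1 and RPL26L1 do not.
RPL28: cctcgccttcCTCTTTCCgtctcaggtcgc
RPLP1: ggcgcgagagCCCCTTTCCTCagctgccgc
RPS27: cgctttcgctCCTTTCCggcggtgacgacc
RPL36: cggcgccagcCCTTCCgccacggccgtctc
RPL22L1: ccgtagcttcCTCTCTgctctcgcggccga
RPL36AL: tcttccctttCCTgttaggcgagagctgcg
RPL7L1: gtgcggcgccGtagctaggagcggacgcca
RPL26L1: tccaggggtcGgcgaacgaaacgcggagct
The first 4 lie at chr19:55385922-55385951 (+), chr15:69452808-69452837 (+), chr1:153990752-153990781 (+) and chr19:5690285-5690314 (+). The paralogs lie at chr3:170870176-170870205 (-), chr14:49620607-49620636 (-), chr6:42879606-42879635 (+) and chr5:172958719-172958748 (+). The pyrimidine run was 8 bases in RPL28, 11 in RPLP1, 7 in RPS27, 6 in RPL36 and RPL22L1 and 3 in RPL36AL. RPL7L1 and RPL26L1 begin with G at this annotated start.

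The median log2 level of an array was 5.29 to 5.32. Across tested genes, arrays of the same group correlated at 0.996 to 0.998 and arrays of different groups at 0.993 to 0.994. Of 14 measured markers of retinal pigment epithelium, 9 lay above the floor of the gene test, a mean log2 level of 5.19. The visual cycle genes RPE65 and RLBP1 were below it, as were BEST1, TYRP1 and MERTK. TYR lay near the floor, at 5.07 to 5.52 over the arrays, and PMEL and SERPINF1 were at 5.57 to 6.23. KRT18, KRT8 and EZR were the brightest, with group means of 10.96 to 12.22. None of 6 fibroblast and 4 leukocyte markers reached the floor, nor did CDH5 of endothelium, while PECAM1 and VWF lay near it, at log2 levels of 5.09 to 5.64 over the arrays. Among these markers KRT18 differed by -0.21 (limma adjusted p = 0.000675) and KRT8 by -0.13 (limma adjusted p = 0.0266).

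Read by the brightest probe set of each gene, the mRNAs of the subunit proteins differed little between the plasmids. The largest differences were in paralogs. The median log2 level was 13.38 in the 64 tested subunit genes and 11.43 in the 6 tested paralogs. Whether level plays a part in this contrast was not tested. Each gene was represented by its brightest probe set, and 71 of the 74 passed the floor. Differences are SATalpha minus GFP on the log2 scale, tested with limma and called at a Benjamini-Hochberg adjusted p under 0.05 over 10879 genes. Of the 71 genes 1 was called higher and 4 lower (7.04%), where 20.8% of all tested genes were called, 7.72% higher and 13% lower. The median difference over the 71 genes was -0.0070, and over all tested genes it was -0.025. Differences under 0.1 in size were found in 66 of the 71 genes (93.0%), against 52.3% of all tested genes and 75.1% of the 169 genes at a mean log2 level of 12 or more that are no members. The SATalpha and GFP values did not overlap in 14 of the 71 genes, 5 higher and 9 lower, whereas 37.6% of all tested genes had groups apart.

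**Figure D1:**
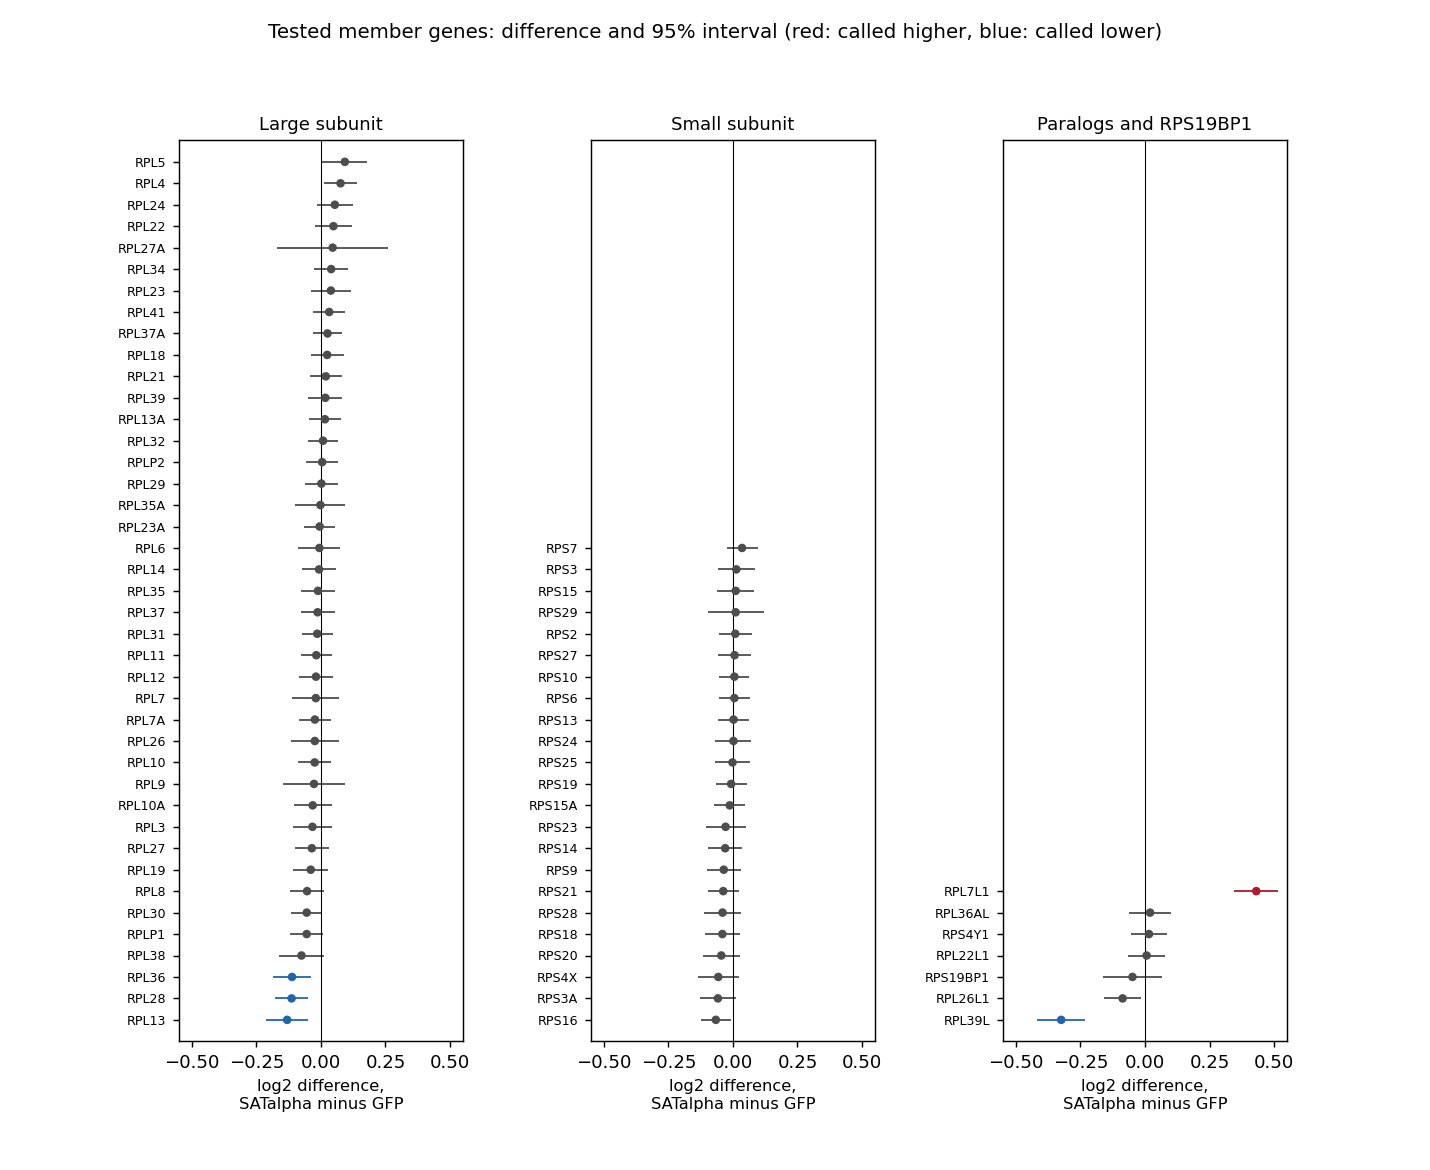
Log2 difference of SATalpha minus GFP (horizontal axis) for the 71 tested genes, with 95% intervals from limma as lines, in panels for the large subunit, the small subunit and the paralogs with RPS19BP1. The subunit genes lie between -0.13 and 0.09, and RPL7L1 (0.43) and RPL39L (-0.32) stand outside that range.

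The 64 tested subunit genes ran from -0.13 to 0.09, with a median of -0.0090. For all 64 the 95% interval of the difference lay within a 1.2-fold change in either direction, and for 6 it left out 0. The 64 include RPL27A, whose only member probe set lay at a log2 level of 5.71. Without RPL27A the interval bounds ran from -0.21 to 0.18. Of the 41 large subunit genes 3 were called lower and 0 higher, with a median of -0.011. Of the 23 small subunit genes 0 were called by limma, with 1 at an unadjusted p under 0.05 (RPS16), and the median was -0.0068. RPS16, named after its values were seen, had log2 levels of 13.40, 13.41 and 13.40 with SATalpha and 13.46, 13.48 and 13.46 with GFP. Its groups were apart, and the difference of -0.07 did not pass (SE 0.03, limma adjusted p = 0.104).

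These small differences were measured near the top of the scale. Of the 64 subunit genes 60 had a mean log2 level of at least 12 and 48 of at least 13. The highest value of an array was 13.98 to 14.01 with SATalpha and 14.31 to 14.32 with GFP. The SATalpha maxima were themselves values of the members RPL32 and RPL37A. The GFP maxima lay above every value of the 64 genes. Whether signals saturated at these levels was not tested. Of the 169 genes at 12 or more that are no members, 37 passed (21.9%), 16% higher and 5.92% lower, and of 25 at 13 or more, 5 passed (20%). The median level of those 169 was 12.42, below that of the 71 members, 13.35. The median replicate SD was 0.034 in the 71 genes and 0.036 in those 169. Across the 64 subunit genes the difference and the level had Pearson's r of 0.026 and Spearman's rho of 0.16. This is a description over genes that share the same arrays, and it includes RPL27A, far below the others in level.

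On each array the median log2 level of the 64 subunit genes was 13.36, 13.39 and 13.34 with SATalpha and 13.40, 13.37 and 13.40 with GFP. The groups overlapped. Fewer cells with such mRNAs and less mRNA per cell cannot be told apart in bulk RNA. Normalization between arrays would also remove a change shared by all genes.

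**Figure D2:**
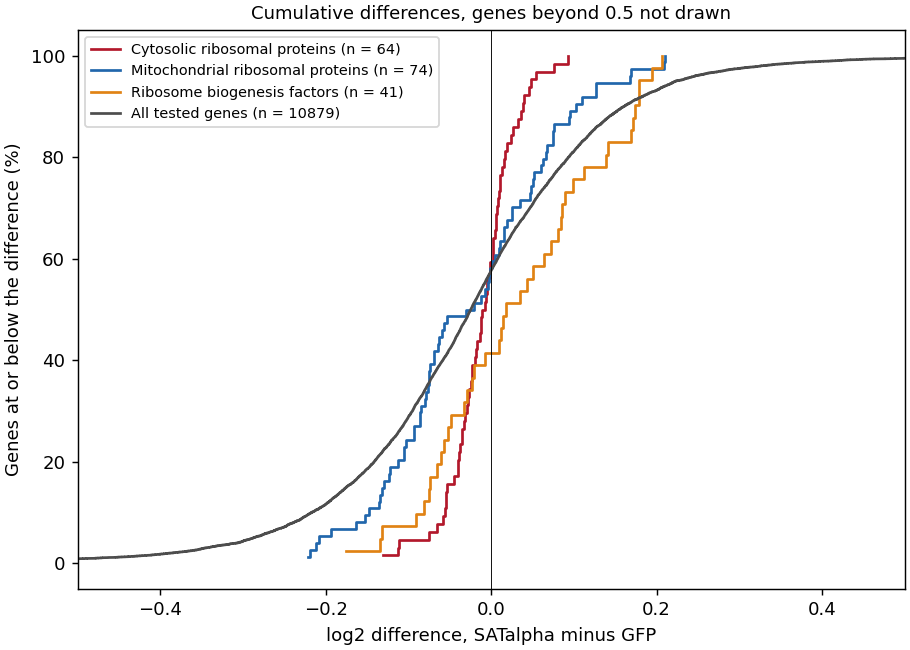
Share of genes (vertical axis, percent) at or below each log2 difference of SATalpha minus GFP (horizontal axis), for the 64 cytosolic subunit genes, 74 mitochondrial ribosomal proteins, 41 ribosome biogenesis factors and all 10879 tested genes. The cytosolic curve is the steepest of the 4, with its quartiles at -0.035 and 0.011.

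RPL7L1 rose. It encodes a nucleolar protein of the uL30 family that takes part in making the large subunit and is related to RPL7. Its brightest probe set was at 10.59, 10.52 and 10.63 with SATalpha and 10.13, 10.18 and 10.14 with GFP. Every SATalpha array lay above every GFP array, and the difference was 0.43 (SE 0.04, limma adjusted p = 6.06e-06), a 1.35-fold increase. RPL7L1 had 7 probe sets, of which 6 were above the floor. All 6 were called higher when each of the 49293 non-control probe sets was tested on its own, with differences of 0.18 to 0.43. The seventh lay far under the floor and differed by -0.09 (limma adjusted p = 0.784). All 6 end in _x_at or _s_at, which marks probes that can match several transcripts.

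RPL39L fell. It is a paralog of RPL39, known for its high level in testis and in some tumour cells, and its protein can take the place of RPL39 at the exit tunnel. Its probe set was at 9.22, 9.19 and 9.16 with SATalpha and 9.50, 9.48 and 9.57 with GFP. The SATalpha arrays all lay below the GFP arrays, and the difference was -0.32 (SE 0.04, limma adjusted p = 0.000165), a 1.25-fold decrease. It had this 1 probe set, which ends in _a_at and is not of the kind that can match other genes. RPL7L1 and RPL39L were the 2 of the 5 called genes that passed whichever array was left out.

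The partners of these paralogs did not pass. RPL39 had log2 levels of 13.44, 13.47 and 13.43 with SATalpha and 13.40, 13.40 and 13.47 with GFP, a difference of 0.02 (limma adjusted p = 0.737). RPL7 had 12.12, 12.05 and 11.99 with SATalpha and 12.06, 12.01 and 12.15 with GFP, a difference of -0.02 (limma adjusted p = 0.791). In both partners the groups overlapped. The gap between paralog and partner was tested within arrays for 5 pairs. RPL7L1 minus RPL7 was -1.47 ± 0.10 with SATalpha and -1.92 ± 0.09 with GFP (SD, n = 3 each), so the gap was smaller by 0.45 with SATalpha (two-sided exact permutation p = 0.1, adjusted p = 0.25 over the 5 pairs). For RPL39L and RPL39 the difference was -0.34 (exact permutation p = 0.1, adjusted p = 0.25). With 3 arrays against 3 the test cannot go below 0.1.

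The other paralogs did not pass. RPL26L1, which differs from RPL26 at only a few residues, was at 11.70, 11.67 and 11.71 with SATalpha and 11.82, 11.78 and 11.74 with GFP. The groups were apart, and the difference of -0.09 missed the threshold (SE 0.03, limma adjusted p = 0.0889). With array weights RPL26L1 was called lower (-0.09, limma adjusted p = 0.0305). RPL22L1, which RPL22 represses in mouse, differed by 0.0066 (limma adjusted p = 0.915), and RPL22 itself by 0.05 (adjusted p = 0.319). As the mean of its 3 probe sets RPL22 was called higher (0.09, limma adjusted p = 0.0275). The pair differences were -0.04 for RPL22L1 and RPL22, -0.06 for RPL26L1 and RPL26 and 0.07 for RPS4Y1 and RPS4X (exact permutation p = 0.6, 0.7 and 0.2). RPL36AL differed by 0.02 (limma adjusted p = 0.759). Its other probe set was at 10.83, 10.78 and 10.96 with SATalpha and 10.73, 10.68 and 10.76 with GFP. There the groups were apart, and the difference of 0.13 did not pass (limma adjusted p = 0.10 over probe sets). RPL3L, made in heart and skeletal muscle, RPL10L, made in testis, and RPS4Y2 were under the floor, so no test was made for them.

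**Figure D3:**
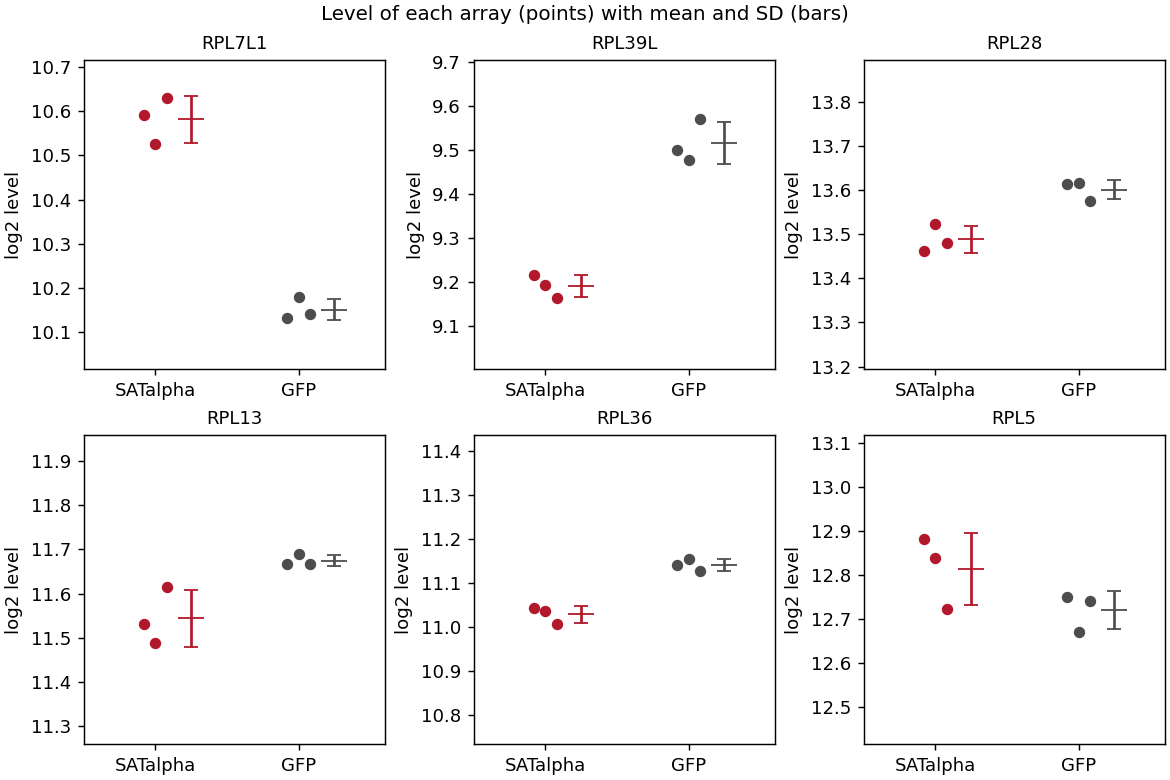
Log2 level of 6 genes on each SATalpha array (red points) and GFP array (grey points), with the mean and SD of each group beside the points; each panel spans 0.7 on the log2 scale. In RPL7L1 the SATalpha arrays lie above the GFP arrays, in RPL39L, RPL28, RPL13 and RPL36 they lie below, and in RPL5 the groups overlap.

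The 3 large subunit genes called lower were RPL13, RPL28 and RPL36, by 1.08- to 1.09-fold. RPL28, a protein of the large subunit found in eukaryotes, was at 13.46, 13.52 and 13.48 with SATalpha and 13.61, 13.61 and 13.58 with GFP. The difference was -0.11 (SE 0.03, limma adjusted p = 0.0147). Its 5 probe sets above the floor differed by -0.12 to -0.05, and 2 of them were called lower. The call on RPL28 was lost without SATalpha replicate 1 (-0.10) or GFP replicate 1 or 2 (-0.11 in both). It was also lost with probe sets that can match several transcripts left out (-0.10), and the mean of all 9 probe sets differed by -0.02 (limma adjusted p = 0.740).

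RPL13 was at 11.53, 11.49 and 11.61 with SATalpha and 11.67, 11.69 and 11.67 with GFP. The difference was -0.13 (SE 0.04, limma adjusted p = 0.0246). A brighter probe set shared by RPL13 and RPL13P12, at a log2 level of 13.32, differed by 0.06 and was not called (adjusted p = 0.261 over probe sets). RPL13 lost the call without SATalpha replicate 1 or 2 (-0.12 and -0.10) or GFP replicate 1, 2 or 3 (-0.13, -0.12 and -0.13). RPL36 was at 11.04, 11.04 and 11.01 with SATalpha and 11.14, 11.15 and 11.13 with GFP, a difference of -0.11 (SE 0.03, limma adjusted p = 0.0305). Its call was lost without SATalpha replicate 1 (-0.12) or GFP replicate 1, 2 or 3 (-0.11, -0.10 and -0.12). The 2 dimmer RPL36 probe sets gave -0.0093 and -0.03. For both genes the groups were apart with all 6 arrays.

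The stalk proteins, which recruit elongation factors, did not pass. RPLP1 was at 13.69, 13.69 and 13.62 with SATalpha and 13.72, 13.71 and 13.73 with GFP. The groups were apart, with a difference of -0.05 (SE 0.03, limma adjusted p = 0.211), and its 4 probe sets differed by -0.09 to -0.03. RPLP2 differed by 0.0051 (limma adjusted p = 0.927). Of the 5S particle, RPL5 was at 12.88, 12.84 and 12.72 with SATalpha and 12.75, 12.67 and 12.74 with GFP. The groups overlapped through SATalpha replicate 3, and the difference of 0.09 did not pass (SE 0.04, limma adjusted p = 0.121). Without that array RPL5 was called higher by 0.14 (limma adjusted p = 0.00670). RPL11 differed by -0.02 (adjusted p = 0.709).

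Several members often used as references or markers were not called. RPL13A, a common reference gene, differed by 0.02 (SE 0.03, limma adjusted p = 0.740). RPS6, the target of S6 kinase, differed by 0.0057 (adjusted p = 0.915) and RPS27 by 0.0067 (adjusted p = 0.905). RPL3, at the peptidyl transferase centre, differed by -0.03 (adjusted p = 0.560). RPL41, the smallest of these proteins, differed by 0.03 (adjusted p = 0.462), and RPL10, which is added late in assembly, by -0.02 (adjusted p = 0.621). RPS19BP1 differed by -0.05 and did not pass. Dimmer probe sets of some of these genes gave larger differences that did not pass either. The second RPL41 probe set differed by -0.13 with groups apart (limma adjusted p = 0.0542 over probe sets). RPL3 had dimmer probe sets at -0.11 and 0.30, both with groups apart in opposite directions (adjusted p = 0.137 and 0.134). RPL10 had 2 at -0.12 and -0.14 with groups apart (adjusted p = 0.277 and 0.179), and RPS6 had 1 at 0.11 with overlapping groups.

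Among all 190 member probe sets 8 were called higher and 6 lower (7.37%), against 8.36% of the 49293 non-control probe sets (4.18% higher and 4.19% lower), so this share was near the background. The groups did not overlap in 19 member probe sets that were higher and 26 that were lower, where 26% of all non-control probe sets had groups apart. Of the 8, 6 belonged to RPL7L1. By level, 3 of the 111 member probe sets at 12 or more were called (2.70%), against 14.7% of 354 other probe sets as bright. Between the floor and 12 the share was 17.3% of 52 member probe sets, against 14.3% of 24904 other probe sets. Most of the called members in this band were the 6 of RPL7L1, and the rest were of RPL39L, RPL34 and RPL13. Differences under 0.1 in size were found in 50% of those 52 and in 50.2% of the 24904 others. At 12 or more the shares under 0.1 were 95.5% of member and 79.1% of other probe sets. The small spread of the members was thus seen at 12 or more and not between the floor and 12. Of the 46 genes with several probe sets above the floor, the differences spanned under 0.1 in 28 and over 0.2 in 8.

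**Figure D4:**
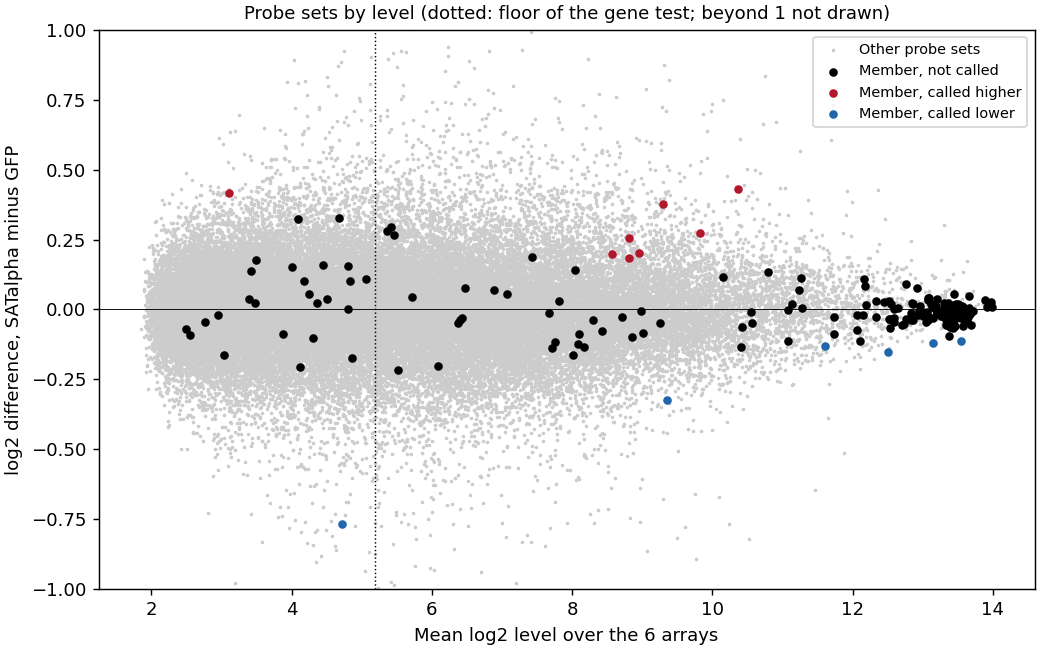
Log2 difference of SATalpha minus GFP (vertical axis) against the mean log2 level over the 6 arrays (horizontal axis) for the 190 member probe sets, in black, red or blue by call, over all other non-control probe sets in grey. Most members lie above a level of 12 close to 0, and the 6 called RPL7L1 probe sets lie between levels of 8.58 and 10.37.

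A few dimmer probe sets differed from the brightest one of their gene. They were chosen after their values were seen. A RPL34 probe set was at 9.44, 9.33 and 9.70 with SATalpha and 9.11, 9.12 and 9.11 with GFP, and rose by 0.38 (limma adjusted p = 0.00384 over probe sets). The 2 brighter RPL34 probe sets differed by 0.04 each. A RPL8 probe set fell by 0.15 (adjusted p = 0.0103), while the 2 others differed by -0.06 and -0.05. The other 2 called probe sets, of RPS18 (lower) and RPL35A (higher), lay under the floor, so their differences are not given as changes.

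Ribosomal protein genes have many processed pseudogenes, and probes can match them. RefSeq listed 1610 pseudogenes named after 66 of the 73 ribosomal protein genes, with up to 137 for RPL21. Of the 190 member probe sets 127 ended in _x_at or _s_at (66.8%), against 29.2% of all non-control probe sets. Their part in the results was not tested. Of the 63 member probe sets with other endings, 40 lay above the floor, with 1 called higher and 2 lower. A further 38 probe sets carried a ribosomal protein symbol beside other symbols and were not members. Of these 3 were called higher and 0 lower (limma over probe sets), and their median was 0.02. Those 3, named after their values were seen, were 2 shared by RPS7 and RPS7P1 (0.30 and 0.11) and 1 shared by RPS2 and RPS2 pseudogenes (0.49). The RPS7 pair lay at log2 levels of 13.31 and 13.35, while RPS7's own brightest probe set differed by 0.04 (limma adjusted p = 0.402). RPL17, RPL36A, RPS12 and RPS26 were seen only there, in 8 probe sets that differed by -0.04 to 0.17 and were not called. RPL27A had as its only member a probe set at a log2 level of 5.71, so its bright mRNA was not measured in the gene test.

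Other genes related to the ribosome were read from 6 lists, whose 178 distinct tested genes outside the members had 22 called higher and 17 lower (21.9%). This share is near the 20.8% of all tested genes (7.72% higher and 13% lower). Of 74 proteins of the mitochondrial ribosome, which translates mitochondrial mRNAs, 5 rose and 9 fell (18.9% called, median -0.03). MRPL14, MRPS26 and MRPS33 fell by 0.21, 0.22 and 0.21, and MRPL30 rose by 0.21 (limma adjusted p = 0.00159 to 0.00850). The calls on MRPS26 and MRPS33 were lost without GFP replicate 1 (-0.20 and -0.19). Of 16 elongation factors and other mRNAs with a TOP element, 2 rose and 0 fell (12.5% called, median 0.045). HNRNPA1, a splicing regulator, rose by 0.17, and so did TPT1, a growth-related protein (adjusted p = 0.00148 and 0.00178). The 2 other TPT1 probe sets differed by -0.06 and -0.05, and their mean with the first was not called (0.02). The elongation factors EEF1A1 and EEF2, chosen after their values were seen, differed by 0.06 and -0.05 and did not pass (adjusted p = 0.170 and 0.245).

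Of 41 tested ribosome biogenesis factors 6 rose and 2 fell (19.5% called, near the 20.8% of all tested genes, median 0.02). PNO1, needed for the small subunit, rose by 0.19, NOLC1, a nucleolar chaperone of snoRNPs, by 0.17, DKC1, the pseudouridine synthase, by 0.18 and DDX21, a nucleolar helicase, by 0.14 (limma adjusted p = 0.00498 to 0.0168). DDX21 lost the call without SATalpha replicate 1 (0.11) or GFP replicate 1 or 2 (0.15 and 0.13), and without probe sets that can match several transcripts (0.085, adjusted p = 0.235). Of 15 genes of RNA polymerase I, which makes rRNA, 2 rose and 3 fell (33.3% called, median -0.03). TAF1D, a subunit of its promoter factor SL1, was at 8.01 ± 0.11 with SATalpha and 8.72 ± 0.09 with GFP (SD, n = 3 each), and fell by 0.72 (limma adjusted p = 4.16e-06). POLR1D fell by 0.26 and TTF1, a termination factor, by 0.22, while POLR1F rose by 0.24. TTF1 lost the call without SATalpha replicate 1 (-0.20) or GFP replicate 1 or 3 (-0.18 and -0.21). The other POLR1D probe sets differed by -0.13 and 0.03, and those of POLR1F by -0.02 and 0.05. Neither gene was called as the mean of its probe sets (-0.12 and 0.09).

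Regulators of ribosomal protein mRNAs moved both ways, with 3 higher and 3 lower of 21 (28.6% called, median 0.04). The mTORC1 inhibitors SESN2 and DDIT4 fell by 0.55 and 0.32 (limma adjusted p = 2.45e-05 and 0.00127), and the cold-inducible RNA-binding protein CIRBP by 0.23, a call lost as the mean of its probe sets (-0.04). MYC, which drives ribosome genes, rose by 0.17 (adjusted p = 0.00640). LARP1 and MTOR, named after their values were seen, differed by -0.07 and 0.12 and did not pass. Among chaperones of ribosomal proteins and the MDM2 axis 4 of 12 rose and 0 fell (33.3% called, median 0.08). For both lists the share over all tested genes was 20.8%, 7.72% higher and 13% lower. NOP53, which acts in large subunit assembly, rose by 0.44 (adjusted p = 4.29e-06), MDM2 by 0.77 and the nuclear exporter XPO1 by 0.36. HEATR3, which helps carry RPL5 into the nucleus, rose by 0.24 (adjusted p = 0.0447). HEATR3 lost the call without SATalpha replicate 1 or 3 (0.24 and 0.21) or GFP replicate 1, 2 or 3 (0.24, 0.26 and 0.22). The 4 other NOP53 probe sets above the floor differed by -0.08 to 0.04, and the mean of its probe sets was not called (0.07).

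Subunit genes were also split by a TOP start, with no test of the split. The 38 tested genes with the element had a median of -0.0016 and 2 calls, and the 16 without it had a median of -0.025 and 1 call. All tested genes had a median of -0.025, and 20.8% of them were called. The annotated start may not be the one used in these cells.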

How the data were processed

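RNA of 6 ARPE-19 wells was hybridised to Affymetrix 3′ expression arrays, per the labels' protocols. The deposited values are log2 levels, normalized between arrays by the authors, as their near-equal medians show. MAS5 and RMA appear in the submitters' processing notes with no role stated. Background settings, tool versions and the genome build were not given in the sources used here. Normalization between arrays removes any change shared by all genes. No detection call was available, and the number of arrays limits the precision (median SE 0.06).

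Of 49372 probe sets 79 were controls, 44988 had 1 symbol, 1832 had several and 2473 were unlisted. The brightest probe set stood for each of 18132 genes, and the lowest 40% of genes were left out, leaving 10879. SATalpha minus GFP was fitted with limma 3.58.1 in R 4.3.3 (lmFit, eBayes with trend) and adjusted by Benjamini-Hochberg at 0.05 over all genes, and a second fit took all 49293 non-control probe sets. The fit was tested on simulated data. Figures were drawn with matplotlib 3.10.9.

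Genes were named by a rule: up to 8 called members in each direction with groups apart, a fixed set of members and paralogs, members whose probe sets were called both ways (none), and up to 4 called genes of each list. Members, lists and rule were chosen with earlier results of these data known. RPLP0, RPSA and RPS27A were not analysed here.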

Additional observations from a re-analysis of the deposited data

How the results depend on the processing

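The median over the ribosomal protein genes moved by less than its replicate SD of 0.014 under every alternative run, between -0.014 and 0.0028 with 1 array left out. RPL7L1 stayed higher (0.21 to 0.46) and RPL39L lower (-0.34 to -0.30) past the threshold wherever they were measured. With probe sets that can match several transcripts left out, RPL7L1 has 1 probe set left, which lies under the floor and was not tested. Main counts were 1 gene higher and 4 lower, 8 probe sets higher and 6 lower, and 22 list genes higher and 17 lower. With probe sets averaged per gene 3 member genes were higher, and with array weights 3 were higher and 30 list genes lower. Without probe sets that can match several transcripts, 0 genes were higher and 2 lower of 32 left, and 2 probe sets were higher and 3 lower of 63. Without a mean-variance trend 1 gene was lower, 1 probe set higher and 2 lower, and 14 list genes higher and 9 lower. By the unmoderated test 1 probe set was higher and 0 lower, and 4 list genes were higher and 7 lower. Without the paralogs 0 genes and 2 probe sets were higher. The share of all genes called, 20.8%, was 11.3% with no filter on low values, 6.59% unmoderated, 12.9% without SATalpha replicate 1 and 11.1% without GFP replicate 1. Leaving out RPS19BP1, an alternative added after seeing the data, changed no count.

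No pairing by replicate number was seen. Deviations of same-numbered arrays correlated at -0.0035, -0.24 and -0.29, and 0 arrays correlated best with their own number. Pairing or a batch across other numbers was not tested. With the replicate block 1 member gene was lower, 4 probe sets were higher and 2 lower, and 13 list genes were higher and 8 lower.

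With 1 array left out, member genes called higher were 1 to 2 and lower 1 to 4, probe sets 3 to 9 and 2 to 7, and list genes 11 to 23 and 6 to 21. Without GFP replicate 1, 11 list genes were higher and 6 lower. Pair differences with 1 array left out were 0.39 to 0.50 for RPL7L1, -0.36 to -0.33 for RPL39L, -0.094 to 0.00087 for RPL22L1, which turned without SATalpha replicate 3, -0.12 to -0.02 for RPL26L1 and 0.04 to 0.11 for RPS4Y1. Over 44 named genes, 591 values kept their direction and side of the threshold, 62 lost the call and 4 gained it, and the causes were not tested. A further 27 values of 11 genes changed sign, 0 of them called in either fit. They were RPS6 (-0.011) and RPL22L1 (-0.019) under quantile normalization, and RPLP2 (-0.032), RPL13A (-0.015), RPS6 (-0.017), RPL41 (-0.050), RPL3 (0.050) and RPL39 (-0.0056) with probe sets averaged. RPL3 was at 0.30 without probe sets that can match several transcripts. With array weights they were RPLP2 (-0.0041), RPS27 (-0.0084), RPL22L1 (-0.0022), RPL7 (0.021) and RPL26 (0.0060). With 1 array left out the ranges that took in both signs were -0.0026 to 0.017 for RPS6, -0.013 to 0.025 for RPL22L1, -0.0083 to 0.013 for RPLP2, -0.014 to 0.023 for RPS27, -0.052 to 0.019 for RPL7, -0.058 to 0.030 for RPL26 and -0.0086 to 0.052 for RPL36AL. Brightness limits the reading of the 48 subunit genes at a log2 level of 13 or more, close to the highest values of the arrays. With SATalpha those highest values were of members.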
